A study of Mus musculus with 4 samples.

Results

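The genes described here are 9 transcription factor genes of lymphoid priming and B cell commitment, *Ebf1*, *Pax5*, *Foxo1*, *Pou2af1*, *Bach2*, *Ikzf1*, *Ikzf3*, *Lef1* and *Mef2c*. They were picked by name from the array's gene annotation, each was represented by 1 of the 28853 probe sets counted, and none of these probe sets carried a 2nd gene symbol. The arrays hold 19938 genes named in this way. Expression was measured on 4 arrays, 1 each for Bcl11a-/- MPPs (multipotent progenitors), WT MPPs, Bcl11a-/- GMPs (granulocyte-macrophage progenitors) and WT GMPs. All cells were donor-derived and were sorted from the BM of lethally irradiated B6.SJL recipients (1200 rad) that had received Bcl11a-/- or WT fetal liver cells. The sample labels place the sort 4 weeks after transfer, while the methods also name a later time for chimeras. The labels give Bcl11a(-/-) and Bcl11a(+/+) as the genotypes, with B6.SJL as the genetic background of every sample. The methods name B6.SJL as the strain of the recipients, so this label need not describe the donor-derived cells. MPPs were the CD150-negative LSK cells. The Bcl11a-/- donor cells carried the deletion in every lineage, the recipients may keep cells of their own beside them, and the sorted donor cells were pooled by donor genotype. The fetal livers were of mid-gestation, and the number of mice in a pool and the age of the recipients were not found in the sources used here. GMPs and MPPs of a genotype came from the same BM, so their arrays share mice. Each condition is 1 pool on 1 array, so genotype and pool cannot be told apart, nothing could be tested, and all differences are descriptions without p-values.

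B cell specification runs through a cascade of transcription factors. In MPPs, Ikaros (*Ikzf1*) and *Mef2c* open lymphoid genes at the expense of myeloid ones, and E proteins together with *Foxo1* then switch on *Ebf1*. Ebf1 activates *Pax5* and the genes of the pre-B cell receptor, and Pax5 holds the cells to the B lineage by shutting off genes of other lineages. *Bach2* restrains myeloid genes in lymphoid progenitors, *Lef1* serves Wnt signaling in early B cells, and *Ikzf3* (Aiolos) and *Pou2af1* (OBF-1, a coactivator of octamer factors) act mainly in later B cells. Loss of Bcl11a is known to impair B cell development, and the arrays ask which genes of early progenitors depend on it.

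*Bcl11a* itself was read first. It had a log2 signal of 8.64 in Bcl11a-/- MPPs and 9.89 in WT MPPs, and of 7.77 in Bcl11a-/- GMPs and 8.60 in WT GMPs. The allele lacks the first exon, so probes in other exons may still detect transcript. The GMP markers *Mpo*, *Elane*, *Prtn3*, *Ctsg*, *Ms4a3*, *Cebpe* and *Fcgr3* averaged 11.3 in Bcl11a-/- GMPs and 11.4 in WT GMPs, against 8.33 in Bcl11a-/- MPPs and 9.64 in WT MPPs. *Kit* and *Cd34* averaged between 9.46 and 10.3 on the 4 arrays, and *Slamf1*, which encodes CD150, was at 4.87 in Bcl11a-/- MPPs and 4.34 in WT MPPs. None of these markers went against a label. Signals are log2 values, a difference by genotype is the Bcl11a-/- value minus the WT value, and a log2 value under 5 is called low signal here. Between 36.2% and 40.8% of probe sets were under 5 on each array.

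In MPPs *Ebf1*, *Pax5*, *Lef1* and *Ikzf3*, 4 of the 9 genes, were over 2-fold lower without Bcl11a, none was over 2-fold higher and 5 were within 2-fold. Of all probe sets, 2.51% were over 2-fold lower in Bcl11a-/- MPPs and 1.39% over 2-fold higher. The median difference of the 9 genes was −0.98, against 0.05 over all probe sets. At 1.5-fold 7 genes were lower, where 7.23% of probe sets were, and at 3-fold *Ebf1* and *Pax5* were, where 0.7% of probe sets were. These are bulk samples, in which fewer cells of a type and less RNA per cell cannot be told apart.

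**Figure D1:**
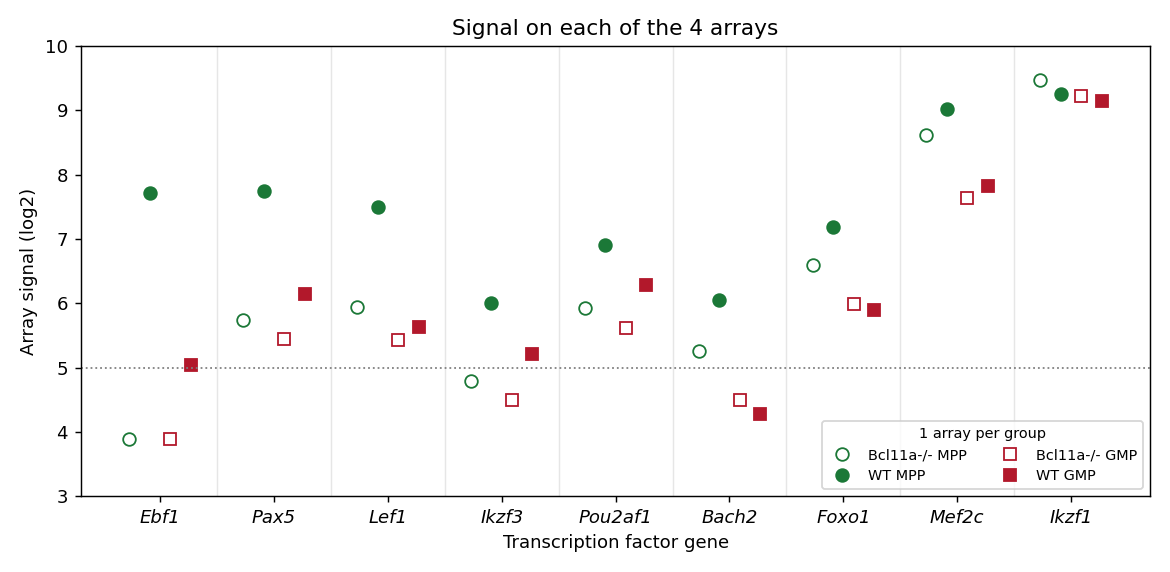
Array signal (log2, y axis) of each of the 9 genes (x axis, ordered by the MPP difference) in Bcl11a-/- MPPs, WT MPPs, Bcl11a-/- GMPs and WT GMPs, 1 array per point, with the low-signal line at 5 dotted. *Ebf1* is at 3.89 in Bcl11a-/- MPPs and 7.72 in WT MPPs, while *Ikzf1* lies between 9.14 and 9.48 on all 4 arrays; points of different genes come from different probes and are not to be set against each other.

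*Ikzf1*, the Ikaros gene, varied least of the 9. Its signal was 9.48 in Bcl11a-/- MPPs and 9.26 in WT MPPs, and 9.22 in Bcl11a-/- GMPs and 9.14 in WT GMPs. The 4 values spanned 0.34 log2 units, and the differences of 0.22 in MPPs and 0.08 in GMPs were both toward higher values in Bcl11a-/- cells. *Ikzf1* was the 1 gene of the 9 with a higher value in Bcl11a-/- MPPs.

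*Mef2c*, a MADS box factor that favors lymphoid over myeloid fate, was 1.32-fold lower in Bcl11a-/- MPPs. Its signal was 8.62 in Bcl11a-/- MPPs and 9.02 in WT MPPs, and 7.64 in Bcl11a-/- GMPs and 7.83 in WT GMPs. Both MPP values lay above both GMP values. The difference was −0.40 in MPPs and −0.19 in GMPs. In MPPs it was the 3557th lowest of all probe sets.

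*Foxo1*, a forkhead factor that drives *Il7r* and *Rag1* in early B cells, was 1.51-fold lower in Bcl11a-/- MPPs. Its signal was 6.60 in Bcl11a-/- MPPs and 7.19 in WT MPPs, and 5.99 in Bcl11a-/- GMPs and 5.90 in WT GMPs. The 2 GMP values differed by 0.09 log2 units. Both were below the MPP values of either genotype.

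*Ebf1* showed the largest difference of the 9 in both populations. Its signal was 3.89 in Bcl11a-/- MPPs and 7.72 in WT MPPs, and 3.88 in Bcl11a-/- GMPs and 5.04 in WT GMPs. WT MPPs stood apart from the other 3 arrays, and both Bcl11a-/- arrays had low signal. The difference of −3.83 in MPPs was the 7th lowest of all 28853 probe sets, and the difference of −1.16 in GMPs the 64th lowest. Since the Bcl11a-/- values were low, the size of the fold depends on how low signals are treated. When values under 5 were set to 5 the difference was −2.72 in MPPs and −0.04 in GMPs.

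*Pax5*, the gene for B cell commitment, was 4.03-fold lower in Bcl11a-/- MPPs. Its signal was 5.74 in Bcl11a-/- MPPs and 7.75 in WT MPPs, and 5.45 in Bcl11a-/- GMPs and 6.14 in WT GMPs. No value was under 5, and again WT MPPs had the highest of the 4. The difference was −2.01 in MPPs (94th lowest of all probe sets) and −0.69 in GMPs (304th lowest).

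*Lef1*, an HMG box factor that carries Wnt signals to the genome, was 2.95-fold lower in Bcl11a-/- MPPs. Its signal was 5.94 in Bcl11a-/- MPPs and 7.50 in WT MPPs, and 5.43 in Bcl11a-/- GMPs and 5.62 in WT GMPs. The MPP difference was −1.56 and the GMP difference −0.19. Bcl11a-/- MPPs were thus closer to either GMP array than to WT MPPs.

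*Ikzf3*, which encodes the Ikaros relative Aiolos, was 2.32-fold lower in Bcl11a-/- MPPs. Its signal was 4.79 in Bcl11a-/- MPPs and 6.01 in WT MPPs, and 4.50 in Bcl11a-/- GMPs and 5.21 in WT GMPs. Both Bcl11a-/- values were low. With values under 5 set to 5 the MPP difference of −1.21 became −1.01 and the GMP difference of −0.71 became −0.21.

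*Pou2af1* lay just short of the threshold. Its signal was 5.93 in Bcl11a-/- MPPs and 6.91 in WT MPPs, and 5.62 in Bcl11a-/- GMPs and 6.28 in WT GMPs. The MPP difference of −0.98 was 1.97-fold, and it passed 2-fold after centring on the median (−1.03). The GMP difference was −0.66.

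*Bach2*, a repressor that acts beside *Pax5* in B cells, was 1.72-fold lower in Bcl11a-/- MPPs. Its signal was 5.26 in Bcl11a-/- MPPs and 6.04 in WT MPPs, and 4.49 in Bcl11a-/- GMPs and 4.28 in WT GMPs. Both GMP values were low, so the GMP difference of 0.22 lies where the arrays measure least. The MPP difference was −0.79.

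The sequences upstream of 4 genes are shown, those of the 3 genes with the lowest differences in MPPs and of *Foxo1*, whose promoter was the only one of 8 to hold a match to any of 7 motifs searched. Promoters come from RefSeq (GRCm38.p6), which gave one for 8 of the 9 genes; *Ikzf3* was not among them. Each run is the 250 bases before the gene's most upstream start, 5′ to 3′ on the strand of the gene, and capitals mark the bases of a motif match. *Ebf1* lies at chr11:44617850-44618099, plus strand, *Pax5* at chr4:44710695-44710944, minus strand, *Lef1* at chr3:131110047-131110296, plus strand, and *Foxo1* at chr3:52268087-52268336, plus strand.
Ebf1: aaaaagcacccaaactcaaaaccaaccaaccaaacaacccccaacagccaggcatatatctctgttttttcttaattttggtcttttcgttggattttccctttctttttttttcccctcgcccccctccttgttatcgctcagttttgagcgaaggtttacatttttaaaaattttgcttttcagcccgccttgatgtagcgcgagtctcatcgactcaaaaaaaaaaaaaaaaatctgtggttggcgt
Pax5: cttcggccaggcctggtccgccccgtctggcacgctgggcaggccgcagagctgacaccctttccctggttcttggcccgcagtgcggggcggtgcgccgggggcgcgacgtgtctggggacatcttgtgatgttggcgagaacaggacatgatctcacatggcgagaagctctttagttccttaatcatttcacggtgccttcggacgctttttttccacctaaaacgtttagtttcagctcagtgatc
Lef1: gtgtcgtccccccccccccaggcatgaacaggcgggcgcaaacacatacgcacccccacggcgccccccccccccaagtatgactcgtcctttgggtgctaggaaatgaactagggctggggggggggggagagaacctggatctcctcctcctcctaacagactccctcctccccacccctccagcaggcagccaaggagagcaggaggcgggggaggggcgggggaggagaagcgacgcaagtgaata
Foxo1: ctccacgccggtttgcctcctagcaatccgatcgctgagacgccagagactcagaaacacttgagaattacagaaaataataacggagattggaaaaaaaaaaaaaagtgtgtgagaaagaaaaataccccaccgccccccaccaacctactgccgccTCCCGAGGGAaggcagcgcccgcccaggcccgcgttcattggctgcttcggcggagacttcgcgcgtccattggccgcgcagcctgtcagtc

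The motifs, read on both strands, were TGACCA (BCL11A), CCCNNGGGA (EBF), CAGCTG (E proteins), TGGGAA (Ikaros), ATGCAAAT (octamer), ATCAAAG (TCF and LEF) and GTAAACA (FOXO). In the *Foxo1* promoter the EBF letters matched on both strands, at −92 to −84 and −91 to −83 from the start, which overlap. EBF letters were in 5.52% of the 27025 promoters of the same length, BCL11A letters in 11.5%, E protein letters in 12.7% and Ikaros letters in 21.5%. Octamer, TCF/LEF and FOXO letters were in 1.62%, 3.26% and 3.06%. The other 7 promoters held none of these letters in this window. RefSeq also gave further starts for *Ebf1*, *Lef1*, *Ikzf1* and *Mef2c*, and the windows before those were not searched. A match or its lack is a description of the letters alone. The share of G and C was 40.0% upstream of *Ebf1*, 58.8% upstream of *Pax5*, 66.4% upstream of *Lef1*, 56.0% upstream of *Foxo1* and 82.0% upstream of *Ikzf1*.

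In GMPs 1 of the 9 genes, *Ebf1*, was over 2-fold lower in Bcl11a-/- cells and none was over 2-fold higher. Of all probe sets 0.35% were over 2-fold lower and 0.319% over 2-fold higher. The median difference of the 9 genes was −0.19, against 0.01 over all probe sets. At 1.5-fold *Ebf1*, *Ikzf3*, *Pax5* and *Pou2af1* were lower, where 1.83% of probe sets were, and none was lower by 3-fold, where 0.097% of probe sets were. The *Ebf1* and *Ikzf3* values rest on low signal in Bcl11a-/- GMPs. With values under 5 set to 5 their GMP differences were −0.04 and −0.21. *Pax5*, *Pou2af1*, *Ikzf1* and *Mef2c*, the 4 genes with a signal of 6 or more on either GMP array, were all within 2-fold. Of these, *Pax5* and *Pou2af1* reached 6 in WT GMPs only (6.14 and 6.28), with 5.45 and 5.62 in Bcl11a-/- GMPs.

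**Figure D2:**
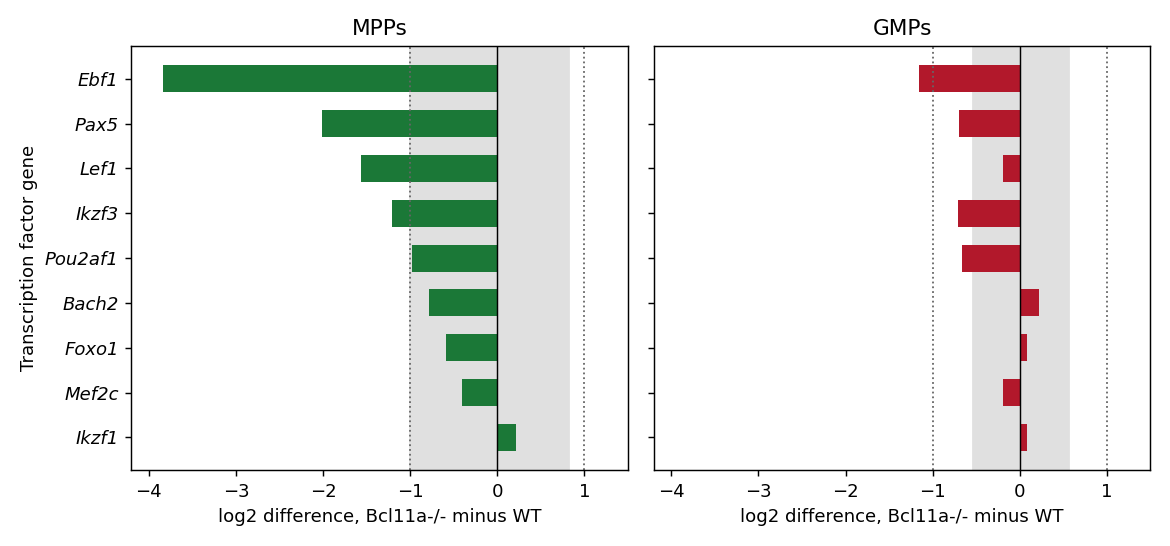
Log2 difference, Bcl11a-/- minus WT (x axis), of each gene (y axis) in MPPs (left) and GMPs (right), 1 array per condition, with dotted lines at 2-fold. The gray band holds the central 95% of all 28853 probe sets, −1.00 to 0.82 in MPPs and −0.53 to 0.56 in GMPs. *Ebf1*, *Pax5*, *Lef1* and *Ikzf3* leave it in MPPs, and *Ebf1*, *Ikzf3*, *Pax5* and *Pou2af1* in GMPs. *Ebf1* and *Ikzf3* had low signal in Bcl11a-/- GMPs, and with values under 5 set to 5 their GMP differences were −0.04 and −0.21.

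Markers of other cell types were read beside these values. For scale, 2.51% of all probe sets were over 2-fold lower and 1.39% over 2-fold higher in Bcl11a-/- MPPs. In Bcl11a-/- GMPs 0.35% were over 2-fold lower and 0.319% over 2-fold higher. Of 6 measured markers of mature B and plasma cells (*Ms4a1*, *Cr2*, *Fcer2a*, *Cd22*, *Sdc1* and *Jchain*), *Ms4a1* and *Jchain* were over 2-fold lower in Bcl11a-/- GMPs, and *Ms4a1* and *Cd22* in Bcl11a-/- MPPs. Both GMP calls were lost when signals under 5 were set to 5. Their mean log2 signal was 4.14 in Bcl11a-/- GMPs and 4.74 in WT GMPs, and 4.47 in Bcl11a-/- MPPs and 5.23 in WT MPPs. *Cr2* and *Fcer2a*, of mature B cells, were under 5 on every array. Among 5 pDC markers *Bst2* and *Cox6a2* were over 2-fold lower in Bcl11a-/- MPPs, with a list mean of 5.86 in Bcl11a-/- MPPs and 6.60 in WT MPPs, while *Siglech* had an MPP difference of 0.17. Among 5 erythroid markers 4 were over 2-fold higher in Bcl11a-/- GMPs, with a list mean of 8.38 in Bcl11a-/- GMPs and 6.84 in WT GMPs. Of 7 GMP markers 4 (*Elane*, *Prtn3*, *Ctsg* and *Ms4a3*) were over 2-fold lower in Bcl11a-/- MPPs, with a list mean of 8.33 in Bcl11a-/- MPPs and 9.64 in WT MPPs. *Mpo* had an MPP difference of −0.50, while *Cebpe* and *Fcgr3* went the other way, with MPP differences of 0.87 and 0.47. Among 6 T cell markers *Cd3d* was over 2-fold higher in Bcl11a-/- MPPs, with a list mean of 5.17 in Bcl11a-/- MPPs and 4.95 in WT MPPs. *Cd4* and *Cd8a* went the other way, with MPP differences of −0.45 and −0.24. The part of any of these in the values of the 9 genes was not tested.

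All 9 genes had higher values in MPPs than in GMPs in either genotype, except that *Ebf1* in Bcl11a-/- cells differed by 0.00 and changed sign with the scaling. Of all probe sets, 39.6% had lower values in MPPs than in GMPs in Bcl11a-/- cells and 42.8% in WT cells. The gap was smaller in Bcl11a-/- cells for 8 of the 9 genes. The share of all probe sets with a smaller gap was not counted, so this count has no background. In Bcl11a-/- cells none of the 9 genes was over 2-fold higher in MPPs, where 3.08% of probe sets were. In WT cells 6 of the 9 genes (*Ebf1*, *Lef1*, *Bach2*, *Pax5*, *Foxo1* and *Mef2c*) were over 2-fold higher in MPPs than in GMPs, where 1.55% of probe sets were. The median gap was 0.32 in Bcl11a-/- cells and 1.29 in WT cells, with medians over all probe sets of 0.11 in Bcl11a-/- cells and 0.06 in WT cells. At 1.5-fold *Foxo1*, *Bach2* and *Mef2c* were higher in Bcl11a-/- MPPs than in Bcl11a-/- GMPs, where 12.1% of probe sets were.

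The gap of *Ebf1* between MPPs and GMPs was 0.00 in Bcl11a-/- cells and 2.67 in WT cells, and its sign in Bcl11a-/- cells turned negative once the arrays were centred on the median, which shifts that comparison by 0.11. For *Pax5* the gap was 0.29 in Bcl11a-/- cells and 1.61 in WT cells. For *Lef1* it was 0.51 in Bcl11a-/- cells and 1.87 in WT cells. *Mef2c* had the widest gap in Bcl11a-/- cells, 0.98, against 1.20 in WT cells, and for *Bach2* the gap was 0.76 in Bcl11a-/- cells and 1.76 in WT cells. Both *Bach2* values in GMPs were low, and with these set to 5 its gap was 0.26 in Bcl11a-/- cells and 1.04 in WT cells. *Ikzf1* was the exception, with 0.26 in Bcl11a-/- cells and 0.12 in WT cells. These gaps use the same 4 arrays as the differences by genotype, so the smaller gap in Bcl11a-/- cells and the lower differences in MPPs than in GMPs are 1 measurement.

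**Figure D3:**
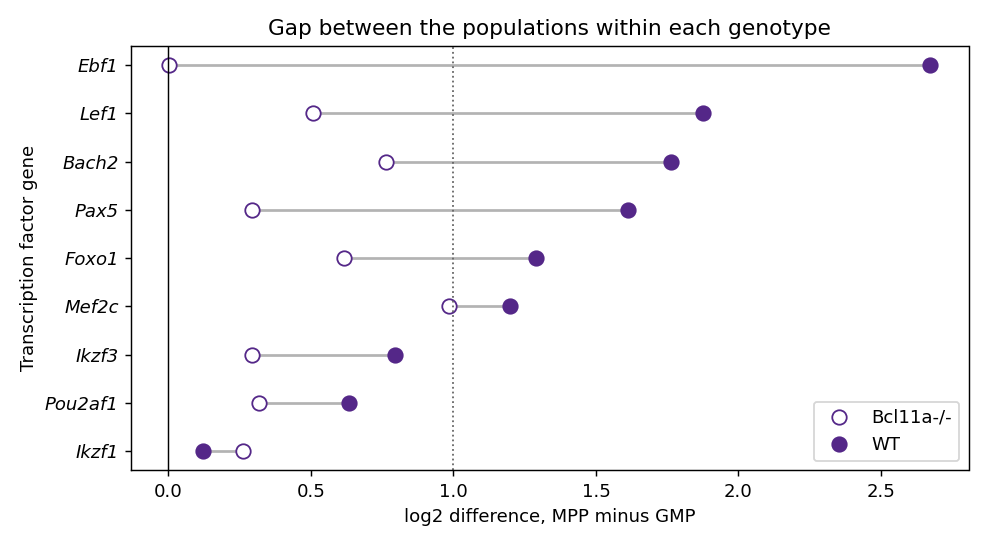
Log2 difference, MPP minus GMP (x axis), of each gene (y axis) in Bcl11a-/- cells (open circles) and WT cells (filled circles), 1 array per population and genotype, with 2-fold dotted. The gap is narrower in Bcl11a-/- cells for all genes but *Ikzf1*, and for *Ebf1* it is 0.00 in Bcl11a-/- cells and 2.67 in WT cells. The share of all probe sets with a narrower gap was not counted.

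Relatives and partners of these factors stayed within 2-fold. Of 18 measured none was over 2-fold in either population, and their median difference was 0.13 in MPPs and −0.12 in GMPs. Of all probe sets, 2.51% were over 2-fold lower and 1.39% over 2-fold higher in Bcl11a-/- MPPs. In Bcl11a-/- GMPs 0.35% were over 2-fold lower and 0.319% over 2-fold higher. At shares this small, a count of none among 18 does not set the relatives apart from other probe sets. *Ebf2*, *Ebf3* and *Ebf4* lay between −0.10 and 0.11 in MPPs, with signals of 5.13 or less on every array. *Pax2* and *Pax8*, the closest relatives of *Pax5*, had MPP differences of 0.23 and 0.34. *Ikzf2* (Helios) had the largest MPP difference of the relatives, with a signal of 8.47 in Bcl11a-/- MPPs and 7.57 in WT MPPs, a difference of 0.90. Within the Ikaros family the MPP differences thus ran from −1.21 for *Ikzf3* over 0.22 for *Ikzf1* to 0.90 for *Ikzf2*, with *Ikzf4* at 0.56 and *Ikzf5* at 0.53.

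*Pou2f2* (Oct-2), an octamer factor that binds *Pou2af1* protein, had a signal of 7.63 in Bcl11a-/- MPPs and 8.29 in WT MPPs, a difference of −0.66. *Tcf7l2*, of the TCF and LEF family, had an MPP difference of −0.51, and *Bach1* one of 0.58. *Foxo3* and *Mef2d* had MPP differences of 0.15 and 0.18. In GMPs the largest difference of a relative was that of *Mef2a*, −0.55. *Pou2f1*, *Tcf7* and *Mef2b* were also listed but had no probe set under that symbol alone here.

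**Figure D4:**
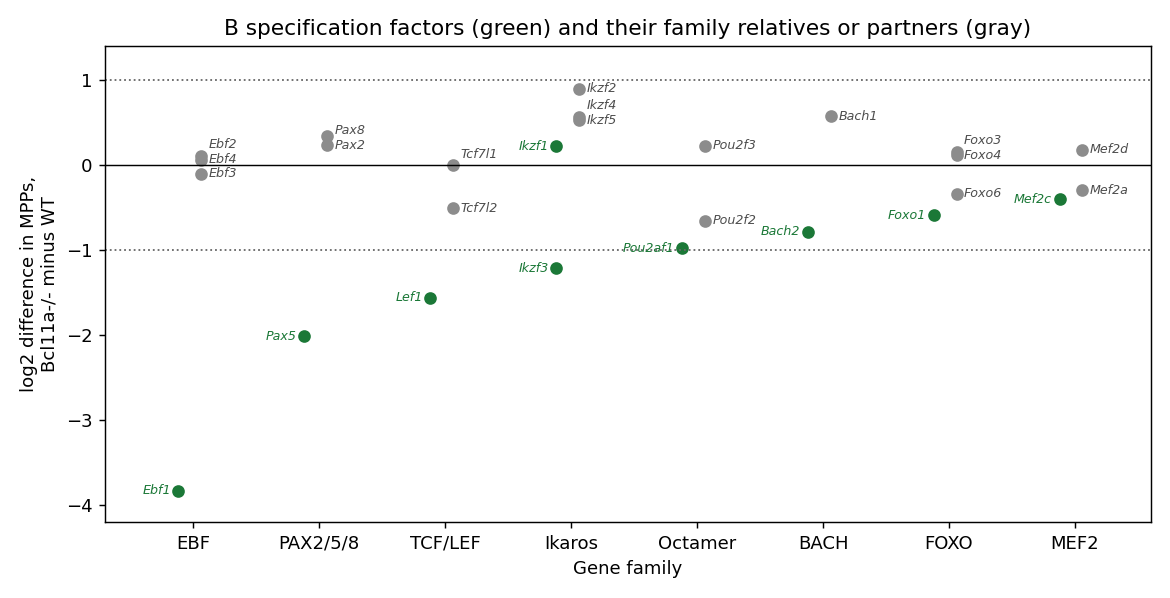
Log2 difference in MPPs, Bcl11a-/- minus WT (y axis), of the B specification factors (green) and of their measured family relatives or partners (gray) by gene family (x axis), 1 array per condition, with 2-fold dotted. *Ebf1* is at −3.83 while *Ebf2*, *Ebf3* and *Ebf4* lie between −0.10 and 0.11, and *Ikzf3* and *Ikzf2* lie on opposite sides of 0.

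Of 25 other transcription factors of lymphoid progenitors, 2 were over 2-fold lower and 1 over 2-fold higher in Bcl11a-/- MPPs. Of all probe sets, 2.51% were over 2-fold lower and 1.39% over 2-fold higher there, and 0.35% were over 2-fold lower in Bcl11a-/- GMPs. The list median was −0.28 in MPPs and −0.04 in GMPs. *Spib*, an ETS factor of B cells and pDCs, had a signal of 5.66 in Bcl11a-/- MPPs and 7.15 in WT MPPs, and of 5.33 in Bcl11a-/- GMPs and 6.38 in WT GMPs. Its fold was 2.81 in MPPs and 2.07 in GMPs, where no other gene of this list was over 2-fold. *Id3* and *Id2* encode inhibitors of E proteins. *Id3* was at 5.31 in Bcl11a-/- MPPs and 6.31 in WT MPPs, just past 2-fold. *Id2* was 2.23-fold higher, at 7.34 in Bcl11a-/- MPPs and 6.18 in WT MPPs. The E protein genes *Tcf3* (E2A), *Tcf12* (HEB) and *Tcf4* (E2-2) had MPP differences of −0.48, 0.38 and −0.89. *Spi1*, which encodes PU.1, had one of −0.68.

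Among genes listed here as B lineage targets of Ebf1, Pax5 or E2A, many but not all were lower. Not each of them need lie downstream of these factors. *Il7r* is on the list, and the paper describes IL-7R signaling as a thought inducer of Ebf. Of 21 measured, 12 were over 2-fold lower in Bcl11a-/- MPPs, where 2.51% of all probe sets were, and 6 in Bcl11a-/- GMPs, where 0.35% were. None of the list was over 2-fold higher, and the list median was −1.25 in MPPs and −0.61 in GMPs. With signals under 5 set to 5, a setting chosen for this list after seeing the data, 12 were over 2-fold lower in MPPs but only 2, *Vpreb1* and *Vpreb3*, in GMPs. *Ms4a1*, *Cd22* and *Cr2* are also on the marker list of mature B cells. In MPPs the lowest differences were those of *Vpreb1* (19.1-fold), *Cd79a* (17.6-fold), *Igll1* (13.0-fold) and *Vpreb3* (9.37-fold), which encode parts of the pre-B cell receptor or help to assemble it. *Cd79a* had low signal in Bcl11a-/- MPPs, and its difference was −2.44 with the low value set to 5. In GMPs they were those of *Cd79a* (4.57-fold), *Vpreb3* (4.03-fold), *Vpreb1* (3.30-fold) and *Ms4a1* (2.74-fold), of which *Cd79a* (−0.59) and *Ms4a1* (−0.23) were within 2-fold once low signals were set to 5. *Cd79a* signal was 3.30 in Bcl11a-/- MPPs and 7.44 in WT MPPs, and 3.39 in Bcl11a-/- GMPs and 5.59 in WT GMPs. *Blnk*, a Pax5 target and signaling adapter, was at 4.84 in Bcl11a-/- MPPs and 7.51 in WT MPPs. Other genes of the list stayed within 2-fold, among them *Blk* at −0.31, *Cd72* at −0.29 and *Cd24a* at 0.29.

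Genes that Pax5 is known to shut off were followed as well. All 6 (*Flt3*, *Csf1r*, *Notch1*, *Cd28*, *Grap2* and *Emb*) had lower values in Bcl11a-/- MPPs, as did 44.0% of all probe sets. Their median was −0.65, against 0.05 over all probe sets. Only *Flt3* was over 2-fold, at 7.71 in Bcl11a-/- MPPs and 9.31 in WT MPPs. In GMPs none of the 6 was over 2-fold, their median was −0.17, and *Cd28* had a higher value in Bcl11a-/- cells, at low signal. Of all probe sets, 2.51% were over 2-fold lower and 1.39% over 2-fold higher in Bcl11a-/- MPPs. In Bcl11a-/- GMPs these shares were 0.35% lower and 0.319% higher. Among 8 measured Foxo1 targets, *Rag1*, *Il7r*, *Rag2* and *Ccr7* were over 2-fold lower in Bcl11a-/- MPPs and *Il7r* in Bcl11a-/- GMPs, where both its values were low, while *Klf2*, *S1pr1* and *Cdkn1b* had differences of 0.20, 0.21 and 0.20 in MPPs. *Il7r* and both *Rag* genes are also on the list of B lineage targets. The 6 Wnt targets stayed within 2-fold in both populations, with *Ccnd1* at −0.72 and *Axin2* at 0.48 in MPPs and *Myc* at 0.37 in GMPs.

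For each gene that varied by more than 1 log2 unit, the 3 genes with the most similar profile were sought among 17063 named genes, as the Euclidean distance over the 4 arrays between log2 values centred on each gene's own mean. The nearest to *Ebf1* were *Vpreb3* (0.80), *Igll1* (0.88) and *Cd79a* (0.89), all farther than the nearest 3 of the other genes described. *Ikzf3* lay nearest to the B cell surface gene *Cd22* (0.10) and then to *Pou2af1* (0.18), and *Pou2af1* nearest to *Ikzf3*. Both had *Slfn5* as their 3rd. *Pax5* lay nearest to *Slamf6* (0.16), *Akap12* (0.40) and *Cox6a2* (0.41), and *Lef1* to *Gngt2* (0.29), *Cecr2* (0.34) and *Rag2* (0.36). *Foxo1* lay nearest to *Lncpint* (0.09), *Bpifc* and *Egfl7*, *Bach2* to *Afap1l1* (0.12), *Vash2* and *Fads2*, and *Mef2c* to *Cnrip1* (0.10), *Vasn* and *Ltc4s*. Among the 9 genes *Foxo1* and *Mef2c* were the 2nd closest pair, at 0.27. Several of these neighbors rest partly on low signal. Among them, *Slamf6* and *Slfn5* were under 5 on every array but WT MPPs, and *Cd79a* was under 5 on both Bcl11a-/- arrays. With 4 arrays many genes share a profile, and these distances are descriptions only.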

How the data were processed

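The authors pooled sorted cells by donor genotype, amplified and biotin-labeled the RNA, and deposited 1 log2 signal per probe set and array after RMA with quantile normalization in ArrayStar (version not given in the sources used here). Scanner files were not used here. The table holds 30177 rows; 1324 unannotated rows with the lowest ID numbers were set aside as controls. Gene symbols came from the array's platform annotation (21789 probe sets with 1 symbol, 1621 with several and 5443 unnamed here), and those of the 9 genes were checked through Entrez identifiers against RefSeq. Genes with several probe sets took their mean.

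Log2 differences, Bcl11a-/- minus WT and MPP minus GMP, were computed with pandas 2.3.3 in Python 3.11.15, and counted past 2-fold. No test was possible without replicates, and the number of arrays limits the precision. The difference, centring and counting steps were tested on simulated arrays. Alternatives were a floor at 5, a filter at 6, median and lowess centring (span 0.3), renewed quantile normalization, the brightest probe set, and thresholds of 1.5-fold and 3-fold. The 9 genes, 6 gene lists and 8 marker lists were chosen with earlier results of these data known. From each gene list the text names up to 4 genes over 2-fold per direction and population, or the largest where none was, plus relatives or partners of the 9 genes; other listed genes given with values were chosen after these were seen. Similar profiles were sought among named genes other than Riken clones, predicted genes, small RNAs, antigen receptor segments and receptors for odorants and pheromones. The stem cell list (6 genes) had none over 2-fold, and the megakaryocyte list 1 of 3, *Pf4*, higher in Bcl11a-/- MPPs, where 1.39% of all probe sets were.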

Additional observations from a re-analysis of the deposited data

Results flagged for a closer look

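In 8 of the genes screened the MPP and GMP differences by genotype had opposite signs. Opposite signs were common, with 44.8% of all probe sets having them. The number of genes screened was not counted, so the 8 have no share to set beside this, and they are not set apart by it. *Bach2* was at −0.79 in MPPs and 0.22 in GMPs, −1.00 as MPP minus GMP difference, and both its GMP values were low. *Foxo1* was at −0.59 in MPPs and 0.09 in GMPs, −0.68 as MPP minus GMP difference. *Id2* was at 1.16 in MPPs and −0.53 in GMPs, 1.69 as MPP minus GMP difference, and *Id3* at −1.00 in MPPs and 0.14 in GMPs, −1.14 as MPP minus GMP difference. Among the markers, the MPP minus GMP difference was −1.89 for *Bst2* (−1.79 in MPPs and 0.10 in GMPs), −2.32 for *Ctsg* (−2.25 in MPPs and 0.07 in GMPs), 1.38 for *Cd3d* (1.07 in MPPs and −0.32 in GMPs) and 1.54 for *Pf4* (1.20 in MPPs and −0.35 in GMPs). These contrasts between the populations were not tested, since each rests on 1 array per condition. Only the 9 factors and genes of the gene and marker lists over 2-fold in either population were screened for this.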

How the results depend on the processing

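The 4 genes over 2-fold lower in Bcl11a-/- MPPs were the same 4 with signals under 5 set to 5 and after renewed quantile normalization. *Pou2af1* joined them (5 genes) after median or lowess centring. The filter asks for a signal of 6 on either array of a comparison. In MPPs it kept all 9 genes, so it could change nothing there. The count of lower genes in MPPs was 7 at 1.5-fold and 2 at 3-fold. The median MPP difference ran from −1.03 to −0.98 over these settings. In GMPs the median over all 9 genes ran from −0.24 to −0.19. The filter at 6 kept only 4 genes in GMPs, and the median of those 4 was −0.43. In GMPs the count of 1 became 0 with signals under 5 set to 5, 0 with the filter at 6, 4 at 1.5-fold and 0 at 3-fold. Between Bcl11a-/- MPPs and Bcl11a-/- GMPs the count of 0 became 1 (*Mef2c*) after lowess centring and 1 after renewed quantile normalization, and 3 at 1.5-fold. The 6 genes over 2-fold between WT MPPs and WT GMPs became 8 at 1.5-fold and 4 at 3-fold. The brightest probe set could change nothing, since each gene has 1. Of 72 single differences recomputed by the floor, centring or normalization, 68 kept their side of 2-fold and moved by less than 1.5-fold. Many of these could move little or not at all. The floor leaves a difference unchanged where both values are above 5. Median centring shifts every gene alike, by 0.05 in MPPs and 0.01 in GMPs. The other 4 were those of *Ebf1* with low signals set to 5 (−2.72 in MPPs, −0.04 in GMPs) and of *Pou2af1* after centring (−1.03 and −1.00 in MPPs). Of the B lineage targets, the 6 over 2-fold in GMPs became 2 with signals under 5 set to 5, which was added after seeing the data. No paired analysis was possible because each group has 1 array. No alternative can stand in for a replicate, and signals near or under 5 limit *Ebf1*, *Ikzf3* and *Bach2* most.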
